A study of Saccharomyces cerevisiae with 9 samples.

Results

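Calcineurin is the calcium- and calmodulin-dependent protein phosphatase of budding yeast, and the transcripts of its core genes, of its transcription factor and of the calcium transporters and kinases that work beside it were followed through salt shock. The 10 genes were taken by their row identifiers, CNA1 (YLR433C), CMP2 (YML057W), CNB1 (YKL190W), CRZ1 (YNL027W), RCN1 (YKL159C), PMC1 (YGL006W), PMR1 (YGL167C), VCX1 (YDL128W), CMK1 (YFR014C) and CMK2 (YOL016C), out of 6942 features on the arrays. All 10 had a value on each of the 9 arrays. Each array compared cDNA from a culture held for 30 min in 0.7 M NaCl with cDNA from the same strain just before salt, so every value is the log2 of treated over unstressed signal. A value of 1 is a doubling, and a ratio gives no transcript level. The mutant, ckb12, is a single BY4741 strain obtained from another laboratory that lacks CKB1 and CKB2, the genes of both regulatory subunits of protein kinase CK2 (2 arrays, sets A and B). Wild type (WT) was BY4741 itself (7 arrays, of which 5 carry the set letters A to E and 2 carry none). Both strains share the BY4741 background and grew in rich YPD medium at 30°C.

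In yeast, calcium that enters the cytosol binds calmodulin, which activates calcineurin, a dimer of a catalytic subunit (Cna1 or Cmp2) and the regulatory subunit Cnb1. Active calcineurin removes phosphate from Crz1, a zinc finger transcription factor that then moves into the nucleus and induces genes for ion transport and cell wall synthesis. Calcineurin mutants are sensitive to high salt, and the sodium pump gene ENA1 is the classic Crz1 target in this condition. Pmc1 and the exchanger Vcx1 clear calcium into the vacuole, and Pmr1 pumps it into the Golgi.

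The deposited table held between 6205 (WT replicate 2) and 6812 (ckb12 replicate 2) values per array, and 6129 features had a value on all 9. Medians lay between -0.0012 and 0.00016, so 0 stands for the middle feature of an array. WT arrays correlated with each other across features with r between 0.88 and 0.98. CKB1 and CKB2, the deleted genes, stood at 0.97 and 0.44 and at 0.82 and 0.71 on the ckb12 arrays, against -0.88 to -0.38 and -0.47 to 0.10 on the WT arrays. The ckb12 values of both genes thus lay above the WT range, and 17.4% of all features had ckb12 values beyond that range on one side. A ratio within a strain cannot show a deletion, so these values do not check the labels.

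The WT arrays asked which of these transcripts respond to NaCl. Of the 10 genes, 7 rose and none fell in limma with Benjamini-Hochberg adjustment over all features, where 36.5% of all features tested were called higher and 40.6% lower. PMC1 rose most, and the kinase genes CMK1 and CMK2, CMP2, VCX1, CRZ1 and PMR1 also rose, while CNA1, CNB1 and RCN1 did not pass. These last 3 did pass with a Storey-type q value, which called 89.8% of all features. A q value is the kind of rule that the study's methods give for the WT response. The median of the 10 mean log2 ratios was 0.54, beside -0.042 over all 6129 features. The genes that rose included 1 catalytic subunit, the transcription factor, all 3 calcium transporters and both kinases. With a further minimum of 1 on the log2 scale 3 genes remained (PMC1, CMK1 and CMK2), and 12.6% of all features passed that rule upwards.

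**Figure D1:**
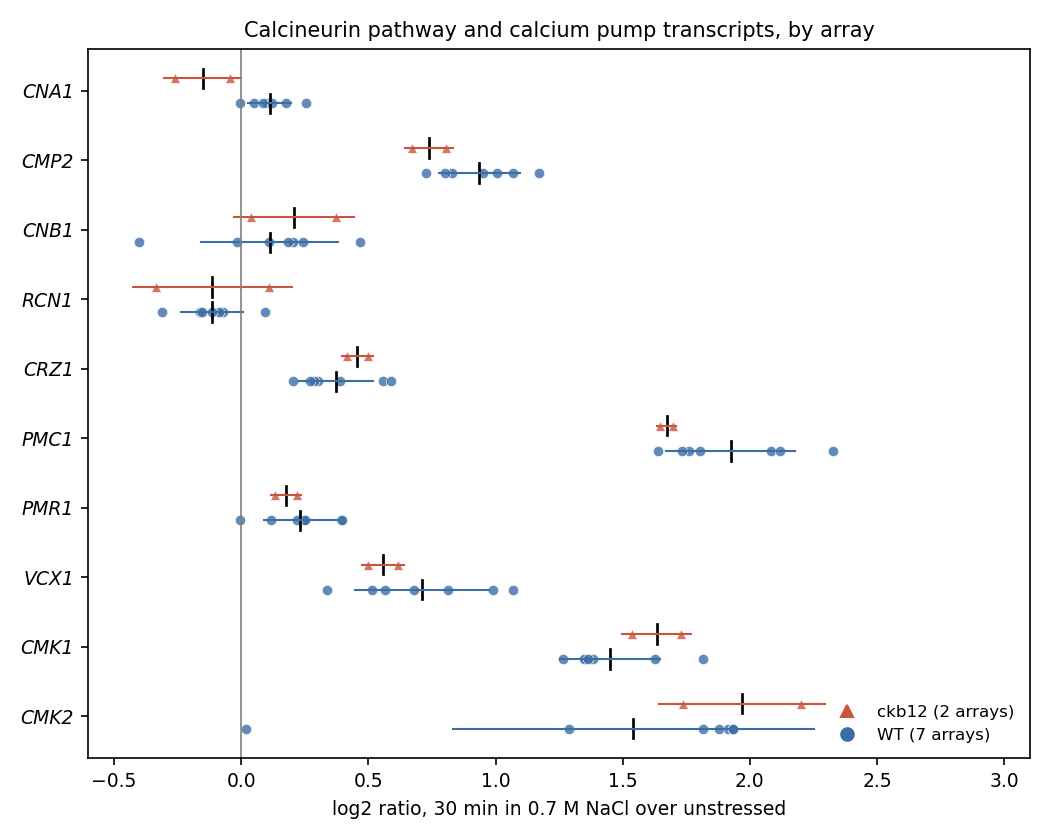
Log2 ratio of treated over unstressed signal (x axis) for each of the 10 genes (rows), with ckb12 arrays as triangles above WT arrays as circles, means as black bars and SDs as horizontal lines (n = 2 and n = 7). PMC1, CMK1 and CMK2 lie farthest to the right, and WT replicate 2 stands apart for CMK2 at 0.018.

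The catalytic subunit genes of calcineurin differed from each other. CMP2 measured 0.81 and 0.67 in ckb12 and, on the WT arrays, between 0.73 and 1.17 with a median of 0.95. Its WT mean was 0.94 ± 0.16 (SD, n = 7), a fold change of 1.91 (adjusted p 6.2e-07, limma with Benjamini-Hochberg). CMP2 was above 0 on every array of both strains. CNA1, the gene of the other catalytic subunit, read -0.26 and -0.045 in ckb12 and between -0.0031 and 0.26 on the WT arrays, with a median of 0.10. Its WT mean of 0.11 ± 0.084 (SD, n = 7) did not pass (adjusted p 0.105, limma with Benjamini-Hochberg). The values of CNA1 were among the least variable on the array, since only 1.71% of features had a smaller SD over the WT arrays. On the same array CNA1 was below CMP2 on all 7 WT arrays, by 0.82 ± 0.17 on the log2 scale (SD, n = 7).

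CNB1, the regulatory subunit gene, gave 0.040 and 0.37 in ckb12 and between -0.40 and 0.47 on the WT arrays, with a median of 0.18. Its WT mean was 0.11 ± 0.27 (SD, n = 7) and did not pass (adjusted p 0.300, limma with Benjamini-Hochberg). The lowest value came from WT replicate 12, and without that array the mean was 0.20 and passed (adjusted p 0.0295). RCN1, which encodes a small regulator that binds and inhibits calcineurin, measured 0.11 and -0.33 in ckb12 and between -0.31 and 0.095 on the WT arrays. Its WT mean was -0.12 ± 0.12 (SD, n = 7), with 1 of 7 arrays above 0 (adjusted p 0.127, limma with Benjamini-Hochberg). The 95% interval of the WT mean ran from -0.26 to 0.029, so a larger mean change of RCN1 at 30 min is outside that interval.

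CRZ1 rose by a small amount. Its log2 ratios were 0.41 and 0.50 in ckb12 and between 0.20 and 0.59 on the WT arrays, with a median of 0.30. The ckb12 values lay inside the WT range, and all 9 arrays were above 0. The WT mean of 0.37 ± 0.15 (SD, n = 7), a fold change of 1.29, passed (adjusted p 6.0e-04, limma with Benjamini-Hochberg).

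PMC1, the vacuolar calcium ATPase gene and a known target of Crz1, read 1.70 and 1.65 in ckb12. On the WT arrays it ranged from 1.64 to 2.33, with a median of 1.81. Every PMC1 value was above every value of the other transporter genes, in both strains. The WT mean was 1.92 ± 0.25 (SD, n = 7), a fold change of 3.79 (adjusted p 1.7e-08, limma with Benjamini-Hochberg), and 95.3% of all features had a lower mean. PMR1, which encodes the Golgi pump for calcium and manganese, gave 0.13 and 0.22 in ckb12 and between -0.0045 and 0.40 on the WT arrays. Its WT mean of 0.23 ± 0.14 (SD, n = 7) was a fold change of 1.17 and passed (adjusted p 0.0100, limma with Benjamini-Hochberg), with 6 of 7 arrays above 0.

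VCX1, the gene of the vacuolar calcium and proton exchanger whose activity calcineurin lowers, measured 0.50 and 0.62 in ckb12. Its WT values ran from 0.34 to 1.07 with a median of 0.68, and all were above 0. The WT mean was 0.71 ± 0.26 (SD, n = 7), a fold change of 1.64 (adjusted p 5.0e-05, limma with Benjamini-Hochberg). The transporters were thus ordered PMC1, VCX1, PMR1 by the mean size of their response.

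CMK1 and CMK2 encode the calmodulin-dependent protein kinases of yeast. CMK1 read 1.54 and 1.73 in ckb12 and between 1.26 and 1.82 on the WT arrays, with a median of 1.37. Its WT mean was 1.45 ± 0.20 (SD, n = 7), a fold change of 2.73 (adjusted p 4.5e-08, limma with Benjamini-Hochberg). CMK2, whose expression is known to depend on calcineurin and Crz1, gave 1.74 and 2.20 in ckb12 and between 0.018 and 1.93 on the WT arrays, with a median of 1.88. WT replicate 2 gave 0.018 and WT replicate 1 gave 1.29, and the other 5 WT arrays lay between 1.82 and 1.93. The WT mean was 1.54 ± 0.71 (SD, n = 7; adjusted p 7.6e-05, limma with Benjamini-Hochberg), and 97.3% of all features had a smaller SD. Without WT replicate 2 the mean was 1.79 ± 0.25 (SD, n = 6), a fold change of 3.47 (adjusted p 4.5e-07). That array also held the fewest values of all arrays, and its part in the CMK2 value was not tested.

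Ordered by the WT mean, the genes ran PMC1, CMK2, CMK1, CMP2, VCX1, CRZ1, PMR1, CNB1, CNA1 and RCN1. The ranges of neighbours in this order overlapped except between CMK1, whose lowest value was 1.26, and CMP2, whose highest was 1.17. To compare paralogues, transporters and the phosphatase with its inhibitor within an array, the difference of 6 pairs was tested over the 7 WT arrays by an exact two-sided sign-flip permutation test, with Benjamini-Hochberg adjustment over the 6 pairs. In 4 pairs all 7 arrays had the same sign, with p = 0.0156, the smallest that 7 arrays allow, and 0.0234 after adjustment by the exact test. CNA1 responded less than CMP2. PMC1 exceeded PMR1 by 1.69 ± 0.26 and VCX1 by 1.21 ± 0.39 on the log2 scale, and PMR1 fell short of VCX1 by a mean difference of -0.48 ± 0.16 (SD, n = 7).

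CMK2 and CMK1 differed by 0.090 ± 0.86 (SD, n = 7), with CMK2 higher on 5 of 7 arrays, and the exact test did not pass (adjusted p 0.844). Without WT replicate 2 the difference was 0.40 ± 0.25 (SD, n = 6; exact test, adjusted p 0.075). On the ckb12 arrays CMK2 exceeded CMK1 by 0.20 and 0.47. RCN1 lay below CNB1 on 6 of 7 WT arrays, by a mean difference of -0.23 ± 0.30 (SD, n = 7; exact test, adjusted p 0.113). Without WT replicate 12 it was -0.31 ± 0.21 (SD, n = 6), which passed the exact test at an adjusted p of 0.0375.

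**Figure D2:**
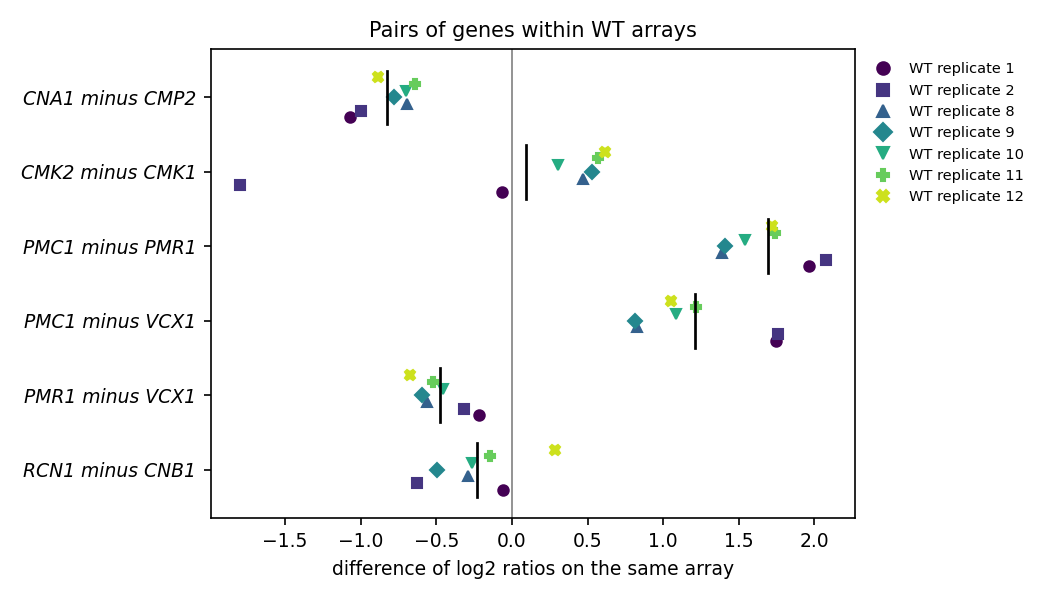
Difference of the log2 ratios of 2 genes on the same array (x axis) for 6 pairs (rows), with 1 marker for each of the 7 WT arrays and the mean as a black bar. CNA1 minus CMP2 lies between -1.07 and -0.64 on all arrays, whereas CMK2 minus CMK1 reaches from -1.80 on WT replicate 2 to 0.62.

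The ckb12 response was taken from a group-means model of all 9 arrays. It called 6 of the 10 genes higher and none lower, where 27.4% of all features were called higher and 35.7% lower. PMC1 averaged 1.67 ± 0.037, CMK1 1.63 ± 0.14, CMK2 1.97 ± 0.33, CMP2 0.74 ± 0.093, VCX1 0.56 ± 0.084 and CRZ1 0.46 ± 0.060 in ckb12 (SD, n = 2). Their adjusted p-values ranged from 2.1e-06 for CMK1 to 0.0131 for VCX1 (limma, Benjamini-Hochberg). All 6 were also called in WT. PMR1, called in WT, averaged 0.18 ± 0.059 in ckb12 (SD, n = 2) and did not pass there (adjusted p 0.220, limma with Benjamini-Hochberg). With 1 ckb12 array left out, the call of VCX1 was lost in both cases (adjusted p 0.0623 without ckb12 replicate 1 and 0.127 without ckb12 replicate 2), as was that of CRZ1 without ckb12 replicate 2 (0.0891), while the lone array is assumed to vary like the WT arrays.

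Whether the loss of the CK2 regulatory subunits altered these responses was asked within sets A and B (4 arrays, blocked by set) and over all 9 arrays. No gene of the 10 passed in either comparison, where 0.0152% of 6600 features and 1.14% of 6129 features were called. The deleted genes CKB1 and CKB2 did not pass in sets A and B either. Their differences there were 1.15 and 0.89 (adjusted p 0.113 and 0.119, limma with Benjamini-Hochberg), and both were called over 9 arrays. A missing call in sets A and B therefore says little about a gene. The share of all features called in sets A and B depended on the setting, with 1 feature here, 178 with limma's robust variance prior (robust eBayes) and 573 of 6356 with only the features that carry ORF-style names, and none of the 10 genes passed under these either. Over 9 arrays the 70 features called became 142 without WT replicate 12 and 0 without either ckb12 array, again with none of the 10. At an unadjusted p below 0.05 there were 0 of the 10 in both comparisons (limma). Of all features, 16.6% in sets A and B and 15.3% over 9 arrays lay below it. In sets A and B the count was 1 with scaling to an equal median absolute deviation (959 of 6600 features). Over 9 arrays it was 1 with missing values allowed (972 of 6751) and 1 with the set letter as a random block (1001 of 6129). It was 1 without WT replicate 1 (812 of 6140) and 2 with a block by replicate number (4 arrays, 1493 of 6147). Both ckb12 values were beyond the WT mean ± 2 SD for 0 of the 10 genes and for 7.59% of all features, a rule that the methods give for other duplicated mutants and not for this one. The differences over 9 arrays were between -0.26 for CNA1 and 0.43 for CMK2, and their median was -0.027, beside -0.057 over all features.

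CNA1 had the lowest p of the 10 over 9 arrays, and VCX1 in sets A and B. Both ckb12 values of CNA1, -0.26 and -0.045, lay below every WT value, which ranged from -0.0031 to 0.26, and 17.4% of all features had ckb12 values beyond the WT range on one side. The difference over 9 arrays was -0.26 (95% interval -0.53 to 0.0024, adjusted p 0.327, limma with Benjamini-Hochberg). Set A gave -0.51 and set B -0.095, so the sets agreed in sign and not in size. The ckb12 and WT values of the 9 other genes overlapped.

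For PMC1 the difference was 0.059 in set A and -0.16 in set B, and -0.25 over 9 arrays (95% interval -0.66 to 0.15; adjusted p 0.560, limma with Benjamini-Hochberg). VCX1 had negative differences in both sets, -0.31 and -0.37, with a mean of -0.34 (95% interval -0.72 to 0.030) that did not pass (adjusted p 0.333, limma with Benjamini-Hochberg). Over 9 arrays VCX1 differed by -0.15 (95% interval -0.57 to 0.27). CMK1 had positive differences in both sets, 0.19 and 0.35, as did CRZ1, 0.13 and 0.30, and neither passed in limma (Benjamini-Hochberg adjusted p 0.433 and 0.528). CMP2 and PMR1 had negative differences in both sets, -0.15 and -0.16 for CMP2 and -0.12 and -0.18 for PMR1.

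Like the difference of PMC1, those of CMK2, CNB1 and RCN1 had opposite signs in the sets. For CMK2 set A gave -0.079, set B gave 0.29, and the difference was 0.43 over 9 arrays, with the widest interval of the 10 genes (-0.56 to 1.41). For the other 9 genes the intervals over 9 arrays went no lower than -0.66 (PMC1) and no higher than 0.54 (CNB1 and CMK1), so differences of up to those sizes are not excluded by these arrays.

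**Figure D3:**
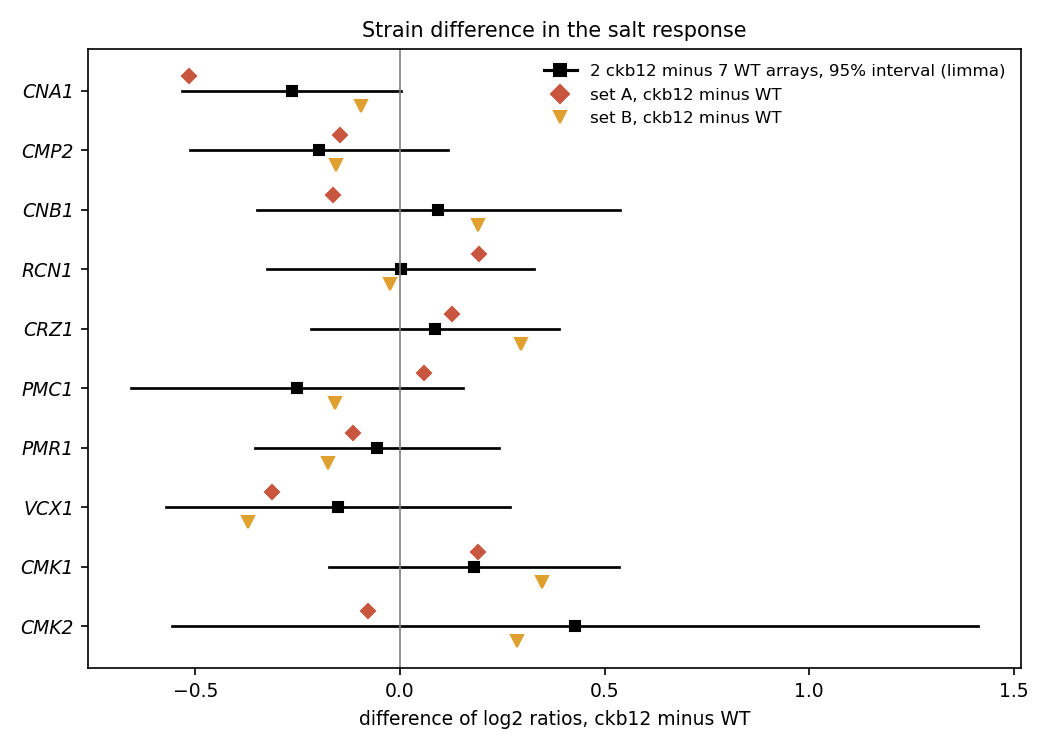
Difference of log2 ratios, ckb12 minus WT (x axis), for each gene (rows), as the limma estimate over 9 arrays with its 95% interval (black) and as the single differences of set A (diamonds) and set B (triangles). Every black interval includes 0, and that of CMK2 is the widest.

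Set letters are the only batch that the labels give, so the 5 WT arrays that carry one were set against the 2 that do not. No gene of the 10 passed, where 0.457% of all features were called, and 2 were below an unadjusted p of 0.05, CMK2 and PMC1 (limma), as were 13.2% of all features. CMK2 averaged 1.90 on the 5 set-labelled arrays and 0.65 on the 2 others, with no overlap. The difference of 1.24 did not pass (adjusted p 0.132, limma with Benjamini-Hochberg). It was 1.88 without WT replicate 1 (adjusted p 0.00376) and 0.61 without WT replicate 2 (0.532), with 1 unlabelled array left in each case. PMC1 averaged 1.81 on set-labelled arrays and 2.20 on the others, and the values overlapped (adjusted p 0.354, limma with Benjamini-Hochberg). CMP2 averaged 0.86 on set-labelled and 1.12 on unlabelled arrays without overlap (adjusted p 0.462). Of all features, 18.7% did not overlap on one side or the other. Within the 5 set-labelled arrays alone, limma again called 7 of the 10 genes higher in WT, where 2334 of 6566 features were called higher.

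Other genes of the pathway were read from 3 lists, where 36.5% of all features were called higher and 40.6% lower in WT. Calcium entry, release and calmodulin were covered by 8 genes, of which 7 were on all WT arrays, and 2 rose and 3 fell (limma, Benjamini-Hochberg). CSC1, a channel gene whose product opens under hyperosmotic conditions, averaged 0.77 ± 0.14, and YVC1, the vacuolar calcium channel gene, 0.39 ± 0.17 (SD, n = 7). GDT1, which encodes a Golgi transporter of calcium and manganese, fell to a mean of -1.23 ± 0.25, and MID1 and CCH1, which form the plasma membrane channel, averaged -0.51 ± 0.15 and -0.25 ± 0.17 (SD, n = 7). CCH1 was below 0 on 6 of 7 WT arrays and the other 4 kept their sign on all 7. CMD1, the only calmodulin gene, averaged -0.12 ± 0.18 (SD, n = 7) and did not pass (adjusted p 0.166). The median of the 7 means was -0.12.

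Regulators, transport receptors and substrates of calcineurin or Crz1 made up 9 genes, of which 4 rose and 4 fell in WT. RCN2, a paralogue of RCN1, rose most, with a mean of 2.98 ± 0.29 (SD, n = 7), a fold change of 7.88 (adjusted p 1.8e-09, limma with Benjamini-Hochberg). On the ckb12 arrays RCN2 had 2.86 and 3.42, against 2.41 to 3.31 on WT arrays. RCN1, described above, averaged -0.12, and the values of these paralogues did not overlap. FRT2 and SLM1 averaged 1.96 ± 0.19 and 1.78 ± 0.22, whereas their paralogues FRT1 and SLM2 averaged -0.30 ± 0.12 and -0.27 ± 0.13 (SD, n = 7). Frt1 and the lipid-binding proteins Slm1 and Slm2 are calcineurin substrates. NMD5, which encodes the importin of Crz1, averaged -1.06 ± 0.029 in ckb12 (SD, n = 2) and -0.61 ± 0.12 in WT (SD, n = 7) and was called lower in WT. The ckb12 values lay below the WT range, yet the difference of -0.45 did not pass (adjusted p 0.115, limma with Benjamini-Hochberg). The median of the 9 WT means was 0.16.

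Known targets of Crz1 were represented by a list of 12 genes, of which 9 rose and 2 fell in WT, with a median mean of 1.31. The list was written from memory with earlier results known, so its counts do not describe Crz1 targets as a class. It leaves out PMC1 and CMK2, described above, with WT means of 1.92 and 1.54. RCN1 and PMR1, with WT means of -0.12 and 0.23, are not in it either, and their dependence on Crz1 was not tested. Of all features, 36.5% were called higher and 40.6% lower. ENA1, ENA2 and ENA5, which encode sodium export pumps, averaged 2.83 ± 0.14, 2.74 ± 0.012 and 2.78 ± 0.056 in ckb12 (SD, n = 2) and 3.23 ± 0.24, 3.19 ± 0.22 and 3.19 ± 0.26 in WT (SD, n = 7). These 3 genes are near-identical tandem copies, so their signals may not be separate and they are best read as 1 measurement. The counts and the median of this list nevertheless hold them as 3 genes. All ckb12 values of the 3 genes lay below their WT ranges, and no difference passed, ENA2 having the lowest p of the 3 at -0.45 (adjusted p 0.232, limma with Benjamini-Hochberg). FKS2, a cell wall glucan synthase gene that RefSeq lists as GSC2, had 1.40 and 0.90 on the ckb12 arrays and averaged 1.61 ± 0.41 in WT (SD, n = 7).

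SCW10, which encodes a cell wall protein, and PHO89, a sodium and phosphate cotransporter gene, were the 2 listed targets that fell. SCW10 averaged -2.22 ± 0.13 in ckb12 (SD, n = 2) and -1.46 ± 0.28 in WT (SD, n = 7), without overlap, and the difference of -0.77 over 9 arrays did not pass (adjusted p 0.101, limma with Benjamini-Hochberg), although it was -0.68 and passed without WT replicate 12 (adjusted p 0.0372). PHO89 had -0.53 and -0.48 in ckb12, against -2.02 to -0.38 in WT, and the paired difference of 1.25 did not pass (adjusted p 0.112, limma with Benjamini-Hochberg). That call depended on the setting, since the same difference passed under robust eBayes (adjusted p 0.0263) and with ORF-style features only (9.3e-04). In sets A and B these settings called 2.70% and 9.02% of all features tested, against 0.0152% in the main fit. With ORF-style features only the paired difference of SCW10, -0.69, also passed (adjusted p 0.0167, and 0.145 over all features). CRH1, a cell wall crosslinking gene, did not pass in WT. Apart from PHO89 and SCW10 under those settings, limma called no gene of the 3 lists between strains. The 2 SD rule was met by NMD5, ENA2 and SCW10, all lower in ckb12. It was met by 7.59% of all features, of which 339 of 465 were also lower. Among the 3 lists, ckb12 values below the WT range were also seen for FRT1, MSN5 and KRE6, and above it for CSC1. Of all features, 17.4% had ckb12 values beyond the WT range on one side. Below an unadjusted p of 0.05 were 7 of 29 in the paired comparison and 7 of 28 over 9 arrays, beside the 16.6% and 15.3% of all features given above. Those over 9 arrays include both ENA2 and ENA5.

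**Figure D4:**
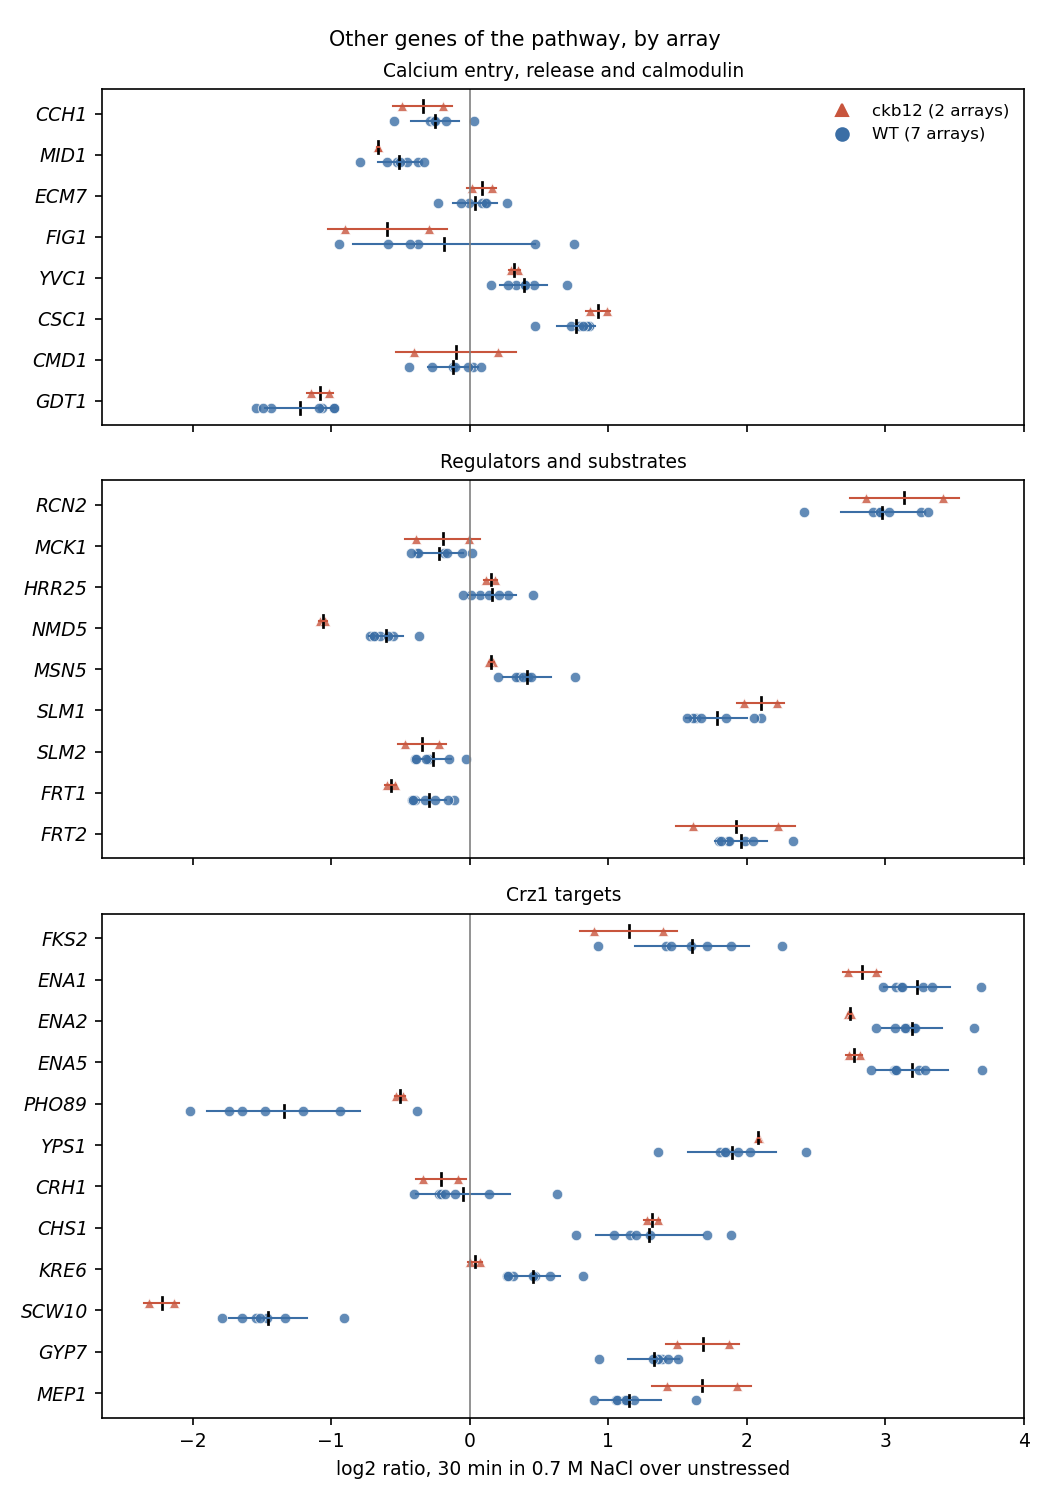
Log2 ratio of treated over unstressed signal (x axis) for the other genes of the pathway in 3 panels (rows are genes), with ckb12 arrays as triangles above WT arrays as circles, means as black bars and SDs as lines. RCN2 and the ENA genes lie highest, near 3, and the ckb12 values of SCW10 lie below its whole WT range.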

How the data were processed

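RNA of ckb12 and WT cultures was hybridised by the authors as treated and unstressed cDNA to 2-colour tiled NimbleGen arrays. The deposited values are log2 ratios per feature and array, normalized by the authors. Log base and direction are not written in the table and come from the methods, the labels and the signs of known salt-induced genes. Software, background correction and genome build are not given in the sources used here. Without intensities, no value could be weighed by its signal over background. All labels give the treated channel the same dye.

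Fits used limma 3.58.1 in R 4.3.3, with only features measured on every array of the fit and calls at a Benjamini-Hochberg adjusted p below 0.05, and were tested on simulated data. The strain comparison of sets A and B used the set letter as a block, following the study's pairing of mutant and wild-type arrays, since the replicate numbers do not match the sets. The A minus B differences of the strains correlated at r = -0.084 across features. WT replicate 12 is called a mutant in its source name but WT in its title and genotype, and was kept as WT. The labels number arrays without naming cultures, so p-values measure the spread between arrays.

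Symbols of all 41 genes read matched RefSeq. The text names all 10 members, CKB1 and CKB2, and from each list up to 3 of the largest WT calls each way with 1 direction on all 7 arrays. CCH1, CMD1, FKS2, CRH1, GYP7, MEP1, MSN5 and KRE6 were named after their values were seen. The members and lists were chosen with earlier results of these data known, and the lists were written from memory. Alternatives were other scalings, filters, variance priors, q values, minimum sizes and blocks, set-labelled arrays alone, a 2 SD rule that the methods give for other duplicated mutants (with 7 WT arrays here) and leaving out single arrays.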

Additional observations from a re-analysis of the deposited data

Results flagged for a closer look

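Single arrays stood apart among the 7 WT arrays for 5 of the genes read, by a gap to the nearest array that was over 0.568 of the whole range (Dixon's criterion). Chance flags about 1 in 20 such groups, and 9.84% of all features were flagged. For CMK2 this was WT replicate 2 at 0.018, and for GYP7, a Crz1 target that encodes a GTPase-activating protein, the same array at 0.93. For CSC1 it was WT replicate 11 at 0.47. For ENA2 and for MEP1, an ammonium permease gene, it was WT replicate 12, at 3.64 and 1.63. Over all features WT replicate 12 was the array apart for 6.46% and WT replicate 2 for 2.06%.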

How the results depend on the processing

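All 7 WT calls among the 10 genes were kept with each array left out, and the count then ranged from 7 to 8, from 4 to 6 for the ckb12 response, 0 in every case for the strain difference over 9 arrays, and from 0 to 1 for the set letters (CMK2 without WT replicate 1). With single WT arrays left out, between 73.8% and 79.4% of all features were called in WT. For the WT response the study's methods give limma with a q value below 0.05. A Storey-type q value called all 10 genes in WT, with CNA1, CNB1 and RCN1 added at 0.0145, 0.0414 and 0.0175. It also called PMR1 in ckb12 at 0.04999. Under it 89.8% of all features were called in WT and 76.7% in ckb12. A minimum change of 1 left 3 genes in WT and 3 in ckb12, 1 gene of the calcium entry list and 3 of the regulators. That rule called 28.7% of all features in WT and 31.7% in ckb12. With 5 set-labelled arrays the exact test of pairs cannot go below 0.0625, and 0 pairs passed, at -0.74 for CNA1 minus CMP2, 1.56 for PMC1 minus PMR1, 0.999 for PMC1 minus VCX1 and -0.56 for PMR1 minus VCX1. CMK2 exceeded CMK1 on all 5 of these arrays, by 0.50 ± 0.12 (SD, n = 5). Its adjusted p of 0.075 (exact test) was the same as for those 4 pairs. RCN1 minus CNB1 ranged from -0.31 to -0.16 with 1 array left out.

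No strain difference of the 10 genes passed under any block. Without the replicate block the 4 arrays of sets A and B gave 0 calls among the 10 genes and 0 among all 6600 features. The set letter as a random replicate block over 9 arrays (correlation within sets 0.177) called none of the 10 and 1.55% of all features. A replicate block by shared replicate number, which joins arrays of different sets, called none of the 10 and 1.46% of all features. Under that last block CNB1 was -0.020 and VCX1 0.11, opposite in sign to the values above. Scaling to an equal median absolute deviation turned the paired differences of CNB1 and CMK2 to -0.0086 and -0.079. With 1 array left out, changes of sign were seen for the strain differences of CNB1 (-0.073 to 0.26) and RCN1 (-0.22 to 0.22) over 9 arrays and for RCN1 in ckb12 (-0.33 to 0.11). They were also seen between set-labelled and unlabelled arrays for CNA1 (-0.052 to 0.13), CNB1 (-0.40 to 0.083), CRZ1 (-0.014 to 0.083), RCN1 (-0.049 to 0.052) and CMK1 (-0.42 to 0.042). None of these values passed, and the cause was not tested. Leaving out an array of sets A and B leaves no residual degrees of freedom, so the differences of each set were given instead.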

Other observations

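Neighbouring genes in the R64 gene order were read after their values were seen, with no test of their own. CNA1 and CMP2 each have an IMP dehydrogenase gene next to them on the downstream side, and these genes, IMD3 and IMD4, averaged -1.52 ± 0.19 and -2.74 ± 0.22 in WT (SD, n = 7), both below 0 on all 7 arrays. CUP2, a copper-responsive transcription factor gene, lies upstream of PMR1 on the opposite strand. It averaged 1.83 ± 0.21 in WT (SD, n = 7), beside 0.23 for PMR1. Such means were also seen beside other members. GSY1, upstream of CMK1, averaged 4.16 ± 0.83 in WT (SD, n = 7). TSR2, upstream of CNA1, and DPH2, upstream of CNB1, averaged -2.33 ± 0.44 and -2.37 ± 0.20 (SD, n = 7).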
